A study of Homo sapiens with 8 samples.

Results

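The regions described here are the ac4C peaks of genes that had a peak in NAT10-knockout SiHa cells and none in SiHa cells. N4-acetylcytidine (ac4C) is an acetylated cytidine, and the assay, acRIP-seq, captures RNA fragments with an antibody against it and sequences them beside input RNA. SiHa is a line of cervical carcinoma cells, and the labels of the second population read KONAT10SiHa, SiHa cells with NAT10 knocked out. The study holds 8 libraries in 4 groups of 2 biological replicates: SiHa input, SiHa IP, NAT10-knockout input and NAT10-knockout IP. No treatment, time, promoter, guide or clone is given for any group, and all groups are the same cell line. The data used here are 2 lists of peaks, each with 1 Ensembl identifier per peak. The list whose name carries an added K was taken to be that of the knockout cells, which the labels do not spell out.

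Members were chosen by presence alone: a peak of the knockout list was taken when its identifier occurred nowhere in the SiHa list, on chromosomes 1 to 22, X and MT. This gave 1997 peaks of 1754 identifiers, out of 4556 knockout peaks of 3725 identifiers and 12924 SiHa peaks of 7291 identifiers, or 17480 peaks in all. The share of identifiers with a knockout peak that the rule kept was thus 47.1% (background 47.1%, since the rule fixes it), and nothing is read from that share. The other 2559 knockout peaks belong to 1971 identifiers found in both lists and serve for comparison. Absence from a list is not absence of ac4C, and presence in the knockout list is not a gain: neither list gives read counts, depth or a value for a single replicate. No difference could therefore be tested against the spread between replicates. All intervals are 95% exact (Clopper-Pearson) intervals that cover the counting of peaks or genes only.

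NAT10 is the acetyltransferase that forms ac4C. Its best established substrates are a small-subunit ribosomal RNA and the tRNAs for serine and leucine, and ac4C in messenger RNA has been linked to transcript stability and translation. An antibody-based peak is a stretch where captured fragments outnumber input fragments. The NAT10 transcript itself is no member: its 1 peak lay in the SiHa list, with 359 bases in blocks and a p of 5e-37, and the knockout list held none.

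A small group of members lay across the start of a transcript. Of the 1997 member peaks, 50 (2.5%, 1.86 to 3.29%) touched the first 50 bases of a RefSeq transcript on the peak's strand. The share was 63 of 2559 (2.46%, 1.9 to 3.14%) among other knockout peaks and 349 of 12924 (2.7%, 2.43 to 2.99%) among SiHa peaks, and the 3 intervals overlap. Shown by the 200 bases that end just before the start are the 5 with the smallest p that met all of the following. The peak had an FDR under 0.05 and at least 20 bases before the start. Its gene had 1 start alone among the RefSeq start windows and no other gene on the same strand around it. Reaching before the start is thus how the 5 were chosen: of the 50 start peaks, 24 had at least 20 bases before a start, 7 had fewer and 19 had none. The sequences are RefSeq's, GRCh38.p14, given 5′ to 3′ on the gene's strand, and capitals mark bases inside the peak:

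LAPTM5: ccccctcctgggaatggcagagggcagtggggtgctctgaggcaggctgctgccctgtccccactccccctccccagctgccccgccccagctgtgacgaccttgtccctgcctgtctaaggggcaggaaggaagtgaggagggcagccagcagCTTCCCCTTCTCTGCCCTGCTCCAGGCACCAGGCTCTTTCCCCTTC
UBXN4: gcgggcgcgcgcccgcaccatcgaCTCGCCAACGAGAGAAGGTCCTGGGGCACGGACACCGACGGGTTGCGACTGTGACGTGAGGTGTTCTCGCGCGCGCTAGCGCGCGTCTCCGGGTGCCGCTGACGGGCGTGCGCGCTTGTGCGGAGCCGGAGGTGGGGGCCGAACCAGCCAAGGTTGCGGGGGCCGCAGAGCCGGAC
PPP1R11: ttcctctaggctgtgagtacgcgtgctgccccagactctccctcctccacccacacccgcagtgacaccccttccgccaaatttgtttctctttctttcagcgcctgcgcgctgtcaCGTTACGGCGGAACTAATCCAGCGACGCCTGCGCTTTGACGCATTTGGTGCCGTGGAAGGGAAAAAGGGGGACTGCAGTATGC
IFITM1: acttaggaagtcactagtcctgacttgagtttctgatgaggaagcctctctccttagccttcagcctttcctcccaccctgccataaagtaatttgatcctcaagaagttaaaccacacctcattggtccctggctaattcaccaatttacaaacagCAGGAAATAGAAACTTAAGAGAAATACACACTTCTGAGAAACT
B2M: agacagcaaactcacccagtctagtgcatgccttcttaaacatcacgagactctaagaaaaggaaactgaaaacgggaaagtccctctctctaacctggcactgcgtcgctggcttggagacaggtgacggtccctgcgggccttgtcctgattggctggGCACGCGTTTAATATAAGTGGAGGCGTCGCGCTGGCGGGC

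LAPTM5, a lysosomal membrane protein of blood cells, has its window at chr1:30757775-30757974 on the minus strand. Its member peak (150 bases, fold 554, p 1e-138) extended 46 bases before the start. UBXN4, a membrane protein of the endoplasmic reticulum that takes part in protein degradation, has its window at chr2:135741655-135741854 on the plus strand. Of the 180 bases of its peak (fold 423, p 1e-105), 176 lay before the annotated start. PPP1R11, an inhibitory subunit of protein phosphatase 1, has its window at chr6:30066998-30067197 on the plus strand. Of the 151 bases of its peak (fold 69.2, p 6.3e-17), 83 lay in that window. The RefSeq gene span of PPP1R11 begins further upstream, at 30061265, so the whole peak lies inside that span. IFITM1, an interferon-induced membrane protein that restricts virus entry, has its window at chr11:313840-314039 on the plus strand. Its peak (181 bases, fold 11, p 1e-108) extended 43 bases before the start. B2M, the light chain of class I antigen-presenting molecules, has its window at chr15:44711317-44711516 on the plus strand. Its peak covered 211 bases in 2 blocks, 40 of them before the start, at a fold of 3.59 and a p of 1.3e-55. The 200-base windows ranged from 42% G and C for IFITM1 to 73.5% for UBXN4, against a median of 59% over all 35116 RefSeq windows.

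A run of C followed by any 2 bases, at least 4 times (CNNCNNCNNCNN, same strand, overlapping runs counted once per window), was searched in the first 50 transcribed bases, since ac4C sites have been described in repeats of that form. It occurred at 15 of the 50 start peaks of members (30%, 17.9 to 44.6%), at 12 of 63 of the other knockout peaks (19%, 10.2 to 30.9%), at 99 of 349 of the SiHa peaks (28.4%, 23.7 to 33.4%) and in 25.7% of all RefSeq windows. All 3 intervals hold the share in all windows. The median C content of these 50 bases was 28% at the start peaks of members and 28% over all windows. Other starts under member peaks were those of PDCD4, an inhibitor of translation initiation (fold 60.1, p 5e-96), POLR2L, a subunit shared by RNA polymerases (fold 7.18, p 1.6e-37), HAX1 (fold 42.3, p 6.3e-25) and the RNA helicase DDX1 (fold 12.5, p 2e-18).

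In place as well as in name, the members stood apart from the SiHa peaks, as the rule makes likely. Only 4 of the 1997 member peaks (0.2%, 0.0546 to 0.512%) shared a base on the same strand with a SiHa peak, each of another identifier, and 7 (0.351%) did so on either strand. Of the other knockout peaks, 872 of 2559 (34.1%, 32.2 to 35.9%) overlapped a SiHa peak. One of the 4 was in ARHGEF10, a guanine nucleotide exchange factor, whose peak shared 33 bases with its SiHa neighbour. Another was at the FDX2 locus on chromosome 19, which encodes a mitochondrial ferredoxin: a knockout peak of fold 82 and p 4e-20 at chr19:10310240-10310462 shared 78 bases with a SiHa peak of p 0.027. The nearest SiHa peak on the same strand lay at a median distance of 136 kb from a member peak, with quartiles of 47.1 and 396 kb, measured between the outer ends of peaks. For other knockout peaks the median was 0.57 kb. Within 10 kb of a SiHa peak were 100 member peaks (5.01%, 4.09 to 6.06%) and 2053 other knockout peaks (80.2%). When SiHa peaks of any identifier inside a touched RefSeq span were counted, 83 of the 1754 identifiers (4.73%, 3.79 to 5.83%) lost their place among the members. The 1671 that kept it include 90 that touched no RefSeq span and so could not lose it.

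**Figure D1:**
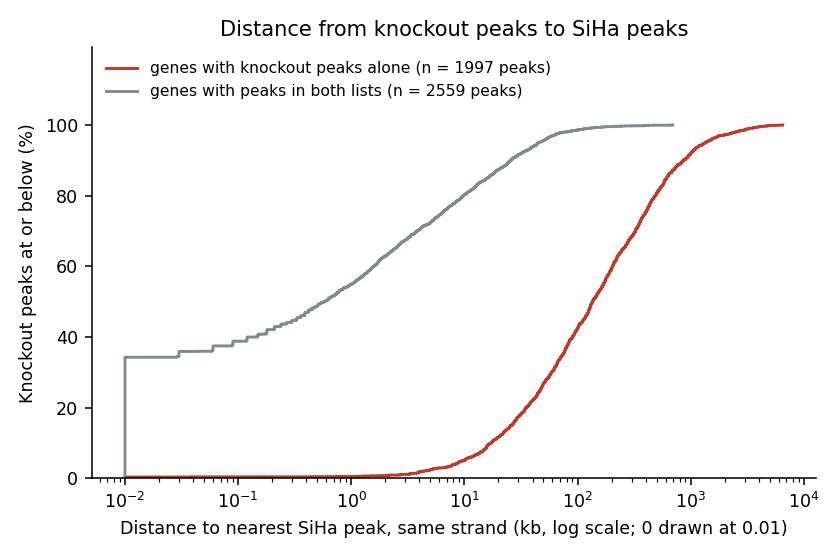
Cumulative share of knockout peaks (y axis, percent) by distance to the nearest SiHa peak on the same strand (x axis, kb, log scale, a distance of 0 drawn at 0.01) for 1997 peaks of genes with knockout peaks alone and 2559 peaks of genes with peaks in both lists. Median distances were 136 and 0.57 kb, and the rule itself keeps SiHa peaks out of the members' own genes.

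Identifiers just outside the rule were often close to it. Of the 1971 identifiers in both lists, 925 (46.9%, 44.7 to 49.2%) had 1 SiHa peak alone, and 80 (4.06%, 3.23 to 5.03%) had no SiHa peak with a p of 0.01 or less. Those 80 would have been members had the SiHa list ended at that p. The members themselves were mostly sparse, with 1548 of 1754 identifiers (88.3%) carrying 1 peak, 180 carrying 2, 18 carrying 3, 5 carrying 4 and 3 carrying 5. Identifiers with 2 or more peaks made up 11.7% of members (10.3 to 13.3%) and 22.9% of identifiers in both lists (21 to 24.8%). Neighbouring identifiers also shared places: 196 member peaks (9.81%, 8.54 to 11.2%) overlapped a knockout peak of another identifier on either strand, so 1754 identifiers are not 1754 separate loci.

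The authors' values were close to those of the other knockout peaks. The fold enrichment, a ratio whose reference the files do not state, had a median of 12.8 among members and 12.8 among other knockout peaks, with quartiles of 7.69 and 25.6 for members and 6.67 and 25.6 for the others. The median of −log10 p was 4.94 among members and 5.55 among the others, and the upper quartiles were 10.2 and 13. The authors' false discovery rate (FDR) was under 0.05 for 1414 of 1997 member peaks (70.8%, 68.8 to 72.8%) and for 2001 of 2559 others (78.2%, 76.5 to 79.8%), against a background of 75.0% over all knockout peaks. Ranked by p and split into 4 groups of 1139 peaks, the knockout list held 50.1% members in its weakest group, then 45.2%, 42.1% and 37.9% in its strongest. The share of members thus fell with the strength of the peak, and the intervals of the weakest (47.2 to 53.1%) and strongest group (35.1 to 40.8%) did not overlap. Peak size varied little: the median was 180 bases for members and 180 for the others, and the widest member peak had 661 bases. Blocks separated by a gap, as a spliced fragment gives, were found in 685 member peaks (34.3%, 32.2 to 36.4%) and in 739 others (28.9%, 27.1 to 30.7%).

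Fold and p were not free of each other. Most peaks repeated a pair of fold and p that another knockout peak also held: 1668 members (83.5%, 81.8 to 85.1%) and 1913 others (74.8%, 73 to 76.4%). The commonest pairs formed a leading series in which the fold was near a whole multiple, 3 or more, of 2.56. The distance allowed from a whole multiple grew with the fold, and at the highest folds any fold met it. The series was defined by the largest p at each fold, so that its fold fixes its p is set by the rule. Its first steps were a fold of 7.69 with p 0.038 (206 peaks, 125 of them members), 10.3 with p 0.01 (224 peaks, 121 members), 12.8 with p 0.0028 (205 peaks, 107 members) and 15.4 with p 0.00072 (178 peaks, 84 members). Off the series, other pairs recurred at the same folds, such as 7.69 with p 0.0023 (50 peaks) and 10.3 with p 0.00019 (48 peaks). The series held 1060 member peaks (53.1%, 50.9 to 55.3%) and 1016 other knockout peaks (39.7%, 37.8 to 41.6%), against a background of 45.6% over all knockout peaks. By this rule it ran up to the highest member fold, 856, though steps were no longer tested for at such folds. On the series the members' median fold was 20.5 and their median −log10 p 4.33. Off it, the 937 member peaks had a lower median fold, 7.69, and a higher median −log10 p, 5.99. The rule makes both contrasts likely, since it asks for 3 steps or more and the largest p at a fold. Other knockout peaks showed the same, with medians of 20.5 and 4.33 on the series and 7.91 and 7.13 off it. The files hold no read counts, and what sets the steps was not tested. The FDR did not follow p alone: peaks with p 0.00019 carried FDR values from 0.00275 to 0.0447, and 49.9% of all knockout peaks had a p that occurred with more than 1 FDR.

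**Figure D2:**
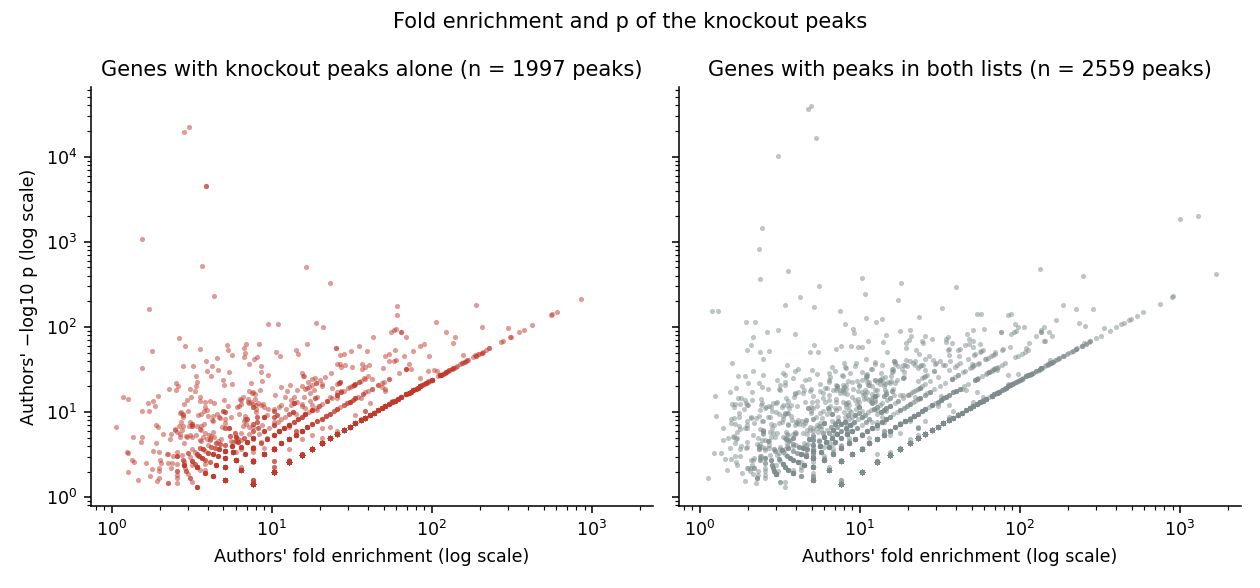
Authors' fold enrichment (x axis, log scale) and −log10 p (y axis, log scale) of each knockout peak, for 1997 member peaks (left) and 2559 other knockout peaks (right). The lowest diagonal of points is the leading series, which holds 53.1% of members and 39.7% of the others, and the highest points at low fold on the left are small structured RNAs such as RN7SK.

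The files name no genes, so names came from RefSeq spans by position. Of the 1754 member identifiers, 1368 (78%, 76 to 79.9%) received a name, as did 1644 of 1971 in both lists (83.4%, 81.7 to 85%). A smaller share of members was protein-coding: 1201 of the named members (87.8%, 85.9 to 89.5%) against 1610 of the named genes in both lists (97.9%, 97.1 to 98.6%). Long noncoding RNAs made up 98 members (7.16%, 5.85 to 8.66%) against 22 (1.34%, 0.84 to 2.02%), and pseudogenes 49 (3.58%, 2.66 to 4.71%) against 5 (0.304%, 0.0988 to 0.708%). Along the RefSeq span, from 5′ to 3′ and introns included, the median centre of a member peak lay at 72.6% of the length. It lay at 80.1% for other knockout peaks and at 84% for SiHa peaks. The last 20% of the span held 43.2% of member peaks (40.4 to 46%), 50.1% of other knockout peaks (47.8 to 52.5%) and 54.5% of SiHa peaks (53.5 to 55.6%). Spans of members were shorter than those of genes in both lists, with medians of 29.8 and 45.1 kb, and close to the 30.9 kb of genes with SiHa peaks alone.

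**Figure D3:**
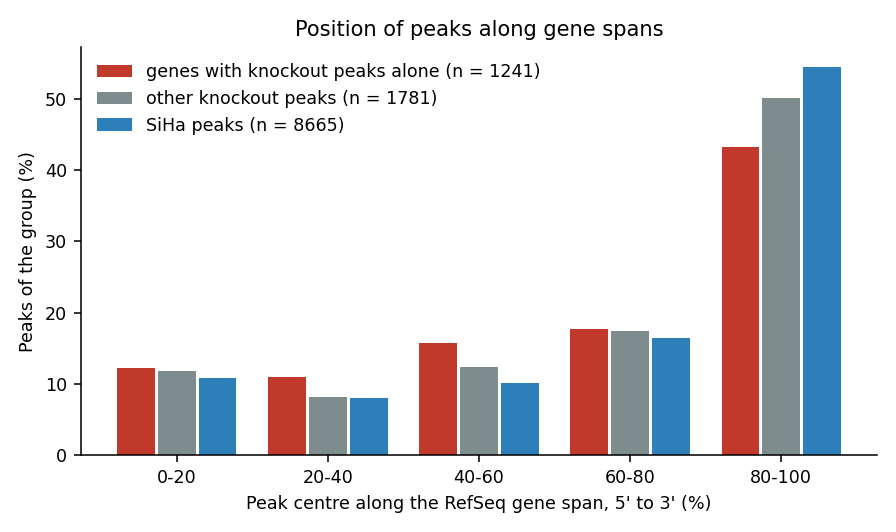
Share of peaks (y axis, percent) in 5 equal bins of the RefSeq gene span from 5′ to 3′ (x axis, percent of length, introns included), for 1241 member peaks, 1781 other knockout peaks and 8665 SiHa peaks of named genes with a known strand. All 3 groups were highest in the last bin, at 43.2%, 50.1% and 54.5%.

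The smallest p-values among members belonged to small structured RNAs. Of the member peaks, 16 (0.801%, 0.459 to 1.3%) had at least 50% of their bases in a RefSeq small RNA, ribosomal RNA left out, against 1 of the other knockout peaks (0.0391%, 0.000989 to 0.218%) and 12 of the SiHa peaks (0.0929%, 0.048 to 0.162%). The 16 peaks fell on 11 RNAs, some of them under several identifiers, and the 12 SiHa peaks on 10. RN7SK, the RNA that holds the elongation factor P-TEFb inactive, carried the strongest, at chr6:52995620-52995950. Its 331 bases covered 99.7% of the gene, with a fold of 3.06 and a p listed at 0 (−log10 p 22300). A second identifier at the same place had a fold of 2.85. RN7SL1, the RNA of the signal recognition particle, had 210 bases at a fold of 3.87 under 2 identifiers, and its copy RN7SL2 had 180 bases at a fold of 1.55. These copies are nearly identical, so reads may be split between them. RPPH1, the RNA of the tRNA-processing enzyme ribonuclease P, had peaks of fold 3.65 and 23.2 under 2 identifiers. The Cajal body RNAs SCARNA5 (fold 6.93, p 6.3e-64) and SCARNA9 (fold 6.74, p 5e-57) and the pseudouridylation guides SNORA22 (fold 33.3, p 3.2e-15) and SNORA16A (fold 38.5, p 6.3e-11, 2 identifiers with this pair) were further members. SNHG12, the host transcript of SNORA16A, had 2 peaks, of fold 5.13 (p 1e-10) and 20.5 (p 4.7e-05). The first covered 100% of SNORA16A and is among the 16, so that place carried folds of 5.13 and 38.5 under different identifiers. No SiHa peak had 50% of its bases in any of these small RNAs. An identifier within ZNF528-AS1 (210 bases, fold 16.4) also had a p listed at 0.

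Among named genes, small p-values came with low and with high folds. THOC2, a subunit of the mRNA export complex THO, had 3 peaks, the strongest with p 1e-234 at a fold of 4.34. GNB1, a G protein beta subunit, had p 1e-162 at a fold of 1.72. SMS, spermine synthase, had p 1e-182 at a fold of 188, and MIDN, midnolin, p 1e-138 at a fold of 60.3. POLR2A, the catalytic subunit of RNA polymerase II, had peaks of fold 18.8 (p 1e-111) and 2.74 (p 6.9e-07). A p this small thus occurred at folds well below and well above the members' median.

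At the highest folds the rule of the leading series no longer tested for steps. For such a fold held by a single peak, it asked only for a −log10 p of less than 0.26 per unit of fold. By that rule, most of the highest folds lay on the series. Among identifiers that received a name, they belonged to LOC100130992 (fold 856, p 1e-214), TXNDC11-AS1 (fold 603, p 1e-150) and FAM157D (fold 567, p 1e-141), all 3 of them long noncoding RNAs. GPC2, a heparan sulfate proteoglycan, followed with a fold of 377 (p 5e-94), IKZF3, a lymphoid transcription factor, with 313 (p 6.3e-78), and DHRS2, a mitochondrial dehydrogenase, with 310 (p 3.2e-77). ATG4D, a protease that processes the autophagy protein ATG8, had a fold of 300 off the series. LINC00504 (fold 279), the retinoid X receptor RXRA (fold 269) and the lymphoid receptor P2RY8 (fold 228, tied with WFDC2) completed the first 10 with a name. Ranked with them, LAPTM5 (fold 554), UBXN4 (fold 423) and a peak touching both GGNBP1 and LINC00336 (fold 349), whose identifiers received no name, would also stand above IKZF3. Most of these genes had 1 peak, and DHRS2, IKZF3, ATG4D and P2RY8 had a second with a fold of 28.2, 76.9, 23.1 and 7.69.

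Genes with many peaks were the exception. IGFN1, an immunoglobulin-domain protein of muscle, carried 5 peaks side by side, at folds of 140, 107, 33.3, 10.3 and 10.3. Among them was the widest member peak, 661 bases at chr1:201209442-201210102. SYNE2, which links the nuclear envelope to actin, also had 5 peaks, all weak, at folds of 10.3, 4.49, 3.59, 2.56 and 2.08. FASN, fatty acid synthase, had 4 peaks at folds of 66.7, 20.9, 20.5 and 3.85, the smallest p being 1.6e-100. TLE3, a transcriptional corepressor, had 4 at folds of 84.6, 21.8, 18.8 and 4.7. CYBB, the catalytic subunit of the phagocyte oxidase, and CSF3R, the receptor of granulocyte colony-stimulating factor, had 4 each. Other wide peaks were in MUC7, a salivary mucin (477 bases, fold 8.55), CPAP, a centriole protein (390 bases in 4 blocks, fold 108), and IL10RA, the interleukin-10 receptor (390 bases, fold 59).

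The 1368 named members were then set against gene lists chosen with earlier results of these data known. A list's count is read here against the background of 45.4%, the share of all 3012 named genes with a knockout peak that had no SiHa peak. No list was tested, and the counts describe these 2 lists of peaks. In the cell cycle list, 8 of 12 genes with a knockout peak were members. PLK1, a mitotic kinase (fold 53.8, p 2.5e-49), TPX2, a spindle assembly factor (fold 7.48, p 5e-14), BIRC5, survivin (fold 14.5, p 5.2e-09), KIF11, a spindle motor (fold 2.48), BUB1, a checkpoint kinase (fold 20.5), and CDK1 (fold 3.2) were the strongest. The DNA replication and repair list gave 8 of 13, with the checkpoint kinase ATR at a fold of 115 (p 2.5e-28), the helicase subunits MCM6 and MCM5 at 5.13 and 4.7, the helicase component CDC45 at 28.2, the licensing factor CDT1 at 7.69, and the polymerase subunit POLA1 at 25.6.

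Genes of RNA handling were split. Of the pre-mRNA splicing factors, 12 of 22 with a knockout peak were members. PTBP1, a splicing repressor, had peaks of fold 31.1 (p 4e-53) and 18.7. SF3A2 (fold 3.88, p 2.5e-40) and SF3B1 (fold 7.26, p 1.6e-13) belong to the branch-site complex, and SRSF2 (fold 8.75), SRSF11 (fold 16.8) and TRA2B (folds 18.8 and 25.6) are serine- and arginine-rich factors. The heterogeneous nuclear ribonucleoproteins gave 3 of 6: HNRNPDL (fold 167, p 3.2e-41), HNRNPM (fold 5.36) and HNRNPC (fold 3.2). By contrast, cytosolic ribosomal proteins gave 3 of 17, namely RPS2 (fold 5.62, p 1.6e-47), RPLP0 (folds 6.32 and 4.09) and RPL24 (fold 2.76). The list headed translation factors, not all of which need act in translation, gave 2 of 12, EIF4A3 (fold 31.8, p 1.6e-34) and EIF1AX (fold 4.49). RNA modification enzymes and readers gave 1 of 8, the reader IGF2BP1 (fold 48.7, p 7.9e-12), and chromatin regulators 11 of 35, among them SMARCB1 (fold 3.23, p 3.2e-35) and SETD1A (fold 94.9, p 3.2e-23).

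Metabolic and signalling lists lay on both sides of the background. Autophagy and lysosome gave 9 of 13, with LAMP1 (fold 5.26, p 7.9e-62), the cargo receptors OPTN (fold 4.22) and SQSTM1 (fold 1.96), and the calcium channel MCOLN1 (fold 43.6). Oxidative phosphorylation subunits gave 5 of 5: SDHA and NDUFB5 (both fold 10.3), NDUFV1 (fold 30.8), ATP5F1A (fold 5.98) and ATP5F1B (fold 1.24). Another 7 genes of that list had SiHa peaks alone. Lipid and sterol synthesis gave 5 of 9, with FADS1 (fold 5.13), MVD (fold 14.1), SREBF2 (fold 23.1) and IDI1 (fold 2.56) beside FASN. Glycolysis and glucose handling gave 4 of 9, led by PFKL (fold 156, p 1.3e-47). Growth factor signalling gave 8 of 19, with EPHB4 (fold 20.5), MTOR (fold 5.41) and the adaptor SHC1 (fold 3.31, p 2.5e-18). Notch, Wnt and Hedgehog genes gave 4 of 9, among them GSK3B at a fold of 76.9 (p 2.5e-53). Solute carriers and transporters gave 8 of 20, with the calcium pump ATP2A2 (fold 2.61, p 4e-21). Proteasome and ubiquitin genes gave 6 of 16, led by OTUD5 (fold 13.3). The p53 pathway and apoptosis gave 2 of 10, among them the apoptosis inhibitor BIRC2, whose FDR was 0.231. Matrix genes gave 9 of 20, with COL1A2 (fold 121), LAMA5 (fold 6.84, p 2e-50) and GPC3 (fold 38.5) beside GPC2. Genes of the cytoskeleton and adhesion gave 2 of 21, the lowest share of the lists with at least 5 such genes: FLNC (fold 35.9) and ITGAV (fold 8.97). The only histone gene with a peak, H2AC20 (fold 10.3), was a member, and SNHG12 was the 1 member of 4 nuclear noncoding RNAs with a knockout peak. Since naming left out small RNAs, that list is also given by place, where 6 of 14 (42.9%) were members.

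**Figure D4:**
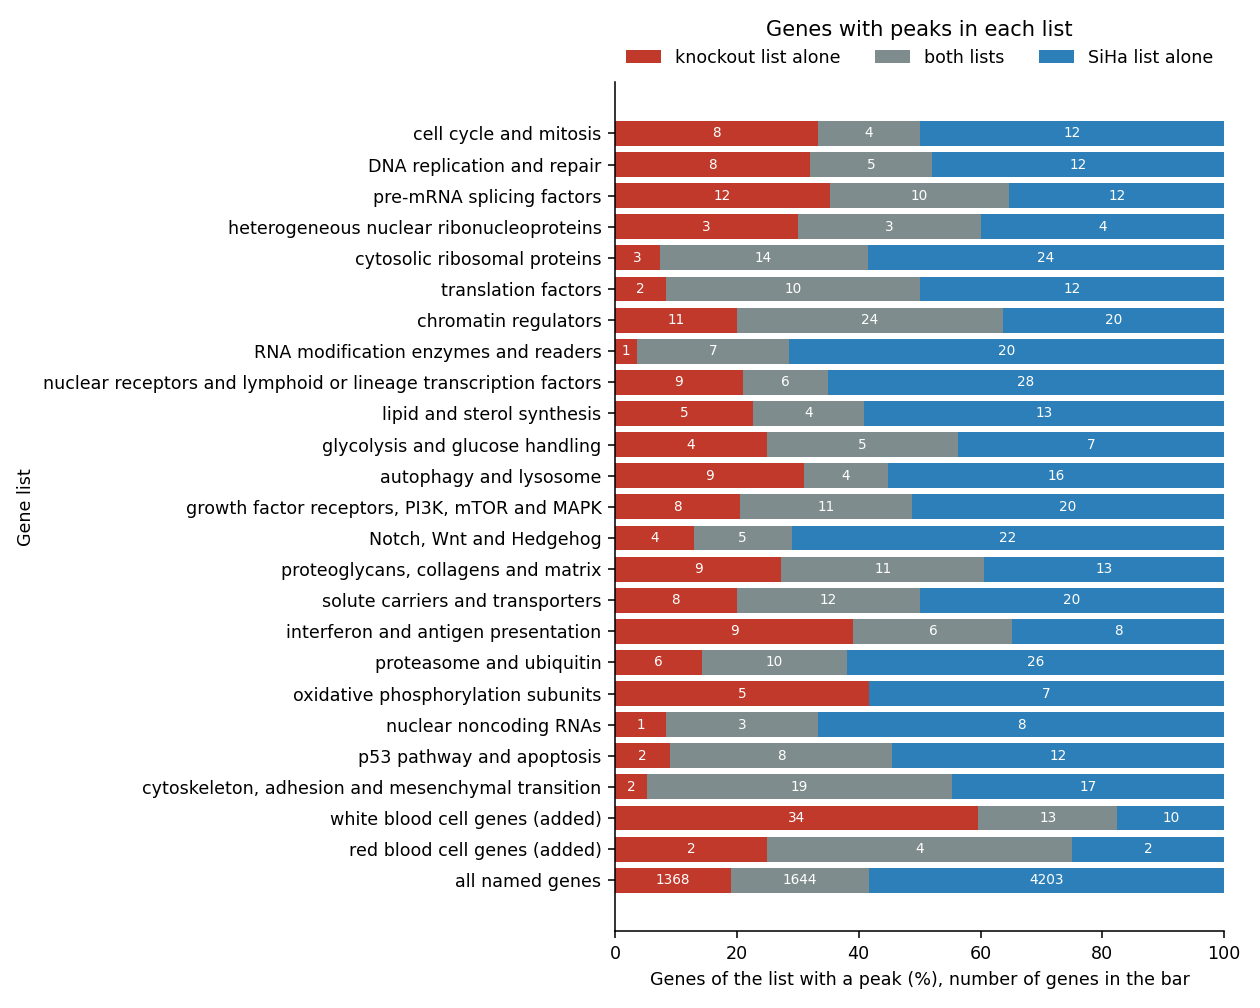
Share of the genes of each list that had a peak (x axis, percent, with the number of genes in each bar) in the knockout list alone, in both lists and in the SiHa list alone (y axis, lists with at least 5 such genes). Of all named genes, 1368 had knockout peaks alone, 1644 had both and 4203 had SiHa peaks alone; the 2 lists of blood cell genes were written after such genes had been seen.

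Interferon and antigen presentation gave 9 of 15. HLA-B, a class I heavy chain (fold 15.4, p 4e-29), and NLRC5, the activator of class I genes (fold 17.9, p 6.3e-25), were named members. So were STAT2 (fold 8.97), STING1 (fold 38.5) and IFI16 (folds 7.05 and 4.03). By place 13 of 20 were members, with IFITM1 and B2M, shown above, CIITA (fold 71.8) and JAK2 (fold 10.3, FDR 0.526) added. The peaks of CIITA and JAK2 also touch DEXI and CSNK1G2P1. All 9 members by name had an FDR under 0.05 (66.4 to 100%), against 1013 of all 1368 named members (74%). The interval holds that share, and other lists, such as lipid and sterol synthesis (5 of 5), also reached 100%. Transcription factors of nuclear receptor and lymphoid families gave 9 of 15, with RXRA and IKZF3 at the top and the early-response genes EGR1 (folds 3.41 and 2.52), JUNB (fold 2.97) and NR4A1 (fold 7.98) below.

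Markers of several cell types were checked against the labelled line. These lists are short, with 3 to 8 genes each, and are counted by name over the genes with a knockout peak, against the same 45.4%. Of the 8 keratinocyte markers, 2 had a knockout peak, and KRT18, a keratin of simple epithelia, was the 1 member (folds 3.96 and 2.56). Another 2 had SiHa peaks alone. Of the 8 lymphocyte markers, 4 had a knockout peak and all 4 were members (PTPRC, IKZF1, IKZF3 and P2RY8). With an FDR under 0.05 they were 3, since the 1 peak of IKZF1 had an FDR of 0.525. The lymphocyte marker CD79A had a peak in the SiHa list alone. Of the 4 myeloid markers, 2 had a knockout peak and both were members, CD14 (FDR 0.526) and CSF1R. By place all 4 had a knockout peak: 3 were members, LYZ among them, and CD68 was in both lists. Members too were the 1 of 4 endothelial markers (PECAM1, fold 56.4) and the 1 of 4 fibroblast markers (COL1A2) with a knockout peak. The erythroid markers HBA1, HBA2 and HBB had peaks in both lists. Of the 3 liver markers 1 had a knockout peak and was in both lists. Of the 4 neuron markers none had a knockout peak and 1 had a SiHa peak. Expression was not measured here, and these counts say which transcripts had a called peak and not how many cells of any kind were present.

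Genes of blood cells were frequent among the members. Lists of 123 white and 18 red blood cell genes were written after such genes had been seen, so their counts describe the members and support nothing. Of the white blood cell genes, 34 were members by name, 13 were in both lists and 10 in the SiHa list alone, or 34 of 47 (72.3%) with a knockout peak against the background of 45.4%. When every peak on a gene's span was counted whatever its identifier, the numbers were 41, 14 and 11. Restricted to peaks with an FDR under 0.05 they were 25, 12 and 11. Of the 64 member peaks on these 41 genes, 56 (87.5%) lay on the leading series, against 53.1% of all member peaks, and their median fold was 23.1 against 12.8. Their median −log10 p, 4.94, equalled that of all members. Of all 85 knockout peaks on white blood cell genes, members or not, 68 (80%) lay on the series, against 45.6% of all knockout peaks. The median fold of those 85 was 25.6, so neither value is shown to be particular to members.

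Several receptors of phagocytes were members; they are described because they were seen there, and FCGR3A, FCGR3B, TLR6, CLEC4E and ITGAX had peaks in both lists. CSF3R had peaks of fold 51.3, 39.3, 25.6 and 12.8, the second with p 7.9e-53. FCGR2A, a receptor for antibodies, had 3 peaks at folds of 94.9, 30.8 and 25.6. FPR1, the receptor for formylated peptides, had 2 at folds of 113 and 28.2. The Toll-like receptors TLR1 (folds 35.9 and 28.2), TLR8 (folds 20.5 and 15.4) and TLR2 (fold 10.3) were members, and TLR4 was in the SiHa list alone. Of the chemokine receptors, CCR1 (fold 41) was a member, CXCR2 was in both lists and CXCR1 was in the SiHa list alone. The inhibitory receptors LILRB1 (fold 97.4), SIGLEC9 (fold 69.2), LILRB3 (fold 38.5) and CD33 (fold 15.4) were members as well. The FDR was 0.155 for CD33 and the weaker TLR8 peak, 0.525 for the weakest CSF3R peak and 0.526 for TLR2.

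Effector and intracellular proteins of blood cells were also members. CYBB had folds of 51.3, 41, 15.4 and 2.21. MNDA, a nuclear protein of myeloid cells, had a fold of 195 over 389 bases. LYZ, lysozyme, had peaks of fold 190, 15.4 and 12.8 on the plus strand, the latter 2 with FDRs of 0.155 and 0.525. On the minus strand, another identifier had a peak of fold 12.8 inside the bounds of the plus-strand peak of that fold. S100A9, a calcium-binding protein of neutrophils, had a fold of 35.9 and ALOX5AP, which activates leukotriene synthesis, 33.3. INPP5D, an inositol phosphatase of blood cells, had a fold of 151, and the water and glycerol channel AQP9 a fold of 74.4 under its own identifier. A peak of fold 94.9 further along the AQP9 span, with no base shared, carries another identifier and also touches the pseudogene MTND5P32. Weak peaks at the lowest steps of the series were common: CD14 and CD53 had 1 peak each at a fold of 7.69, and TLR2, WAS and CLEC7A had 1 each at 10.3, all with an FDR of 0.526. Of red blood cell genes, the anion exchanger SLC4A1 (fold 84.6) and the haem synthesis enzyme ALAS2 (fold 20.5) were members, 4 more genes were in both lists and 2 in the SiHa list alone. That is 2 of 6 (33.3%) with a knockout peak, against the background of 45.4%. The part of other cells, of depth or of the reference of the fold in these peaks was not tested.

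**Figure D5:**
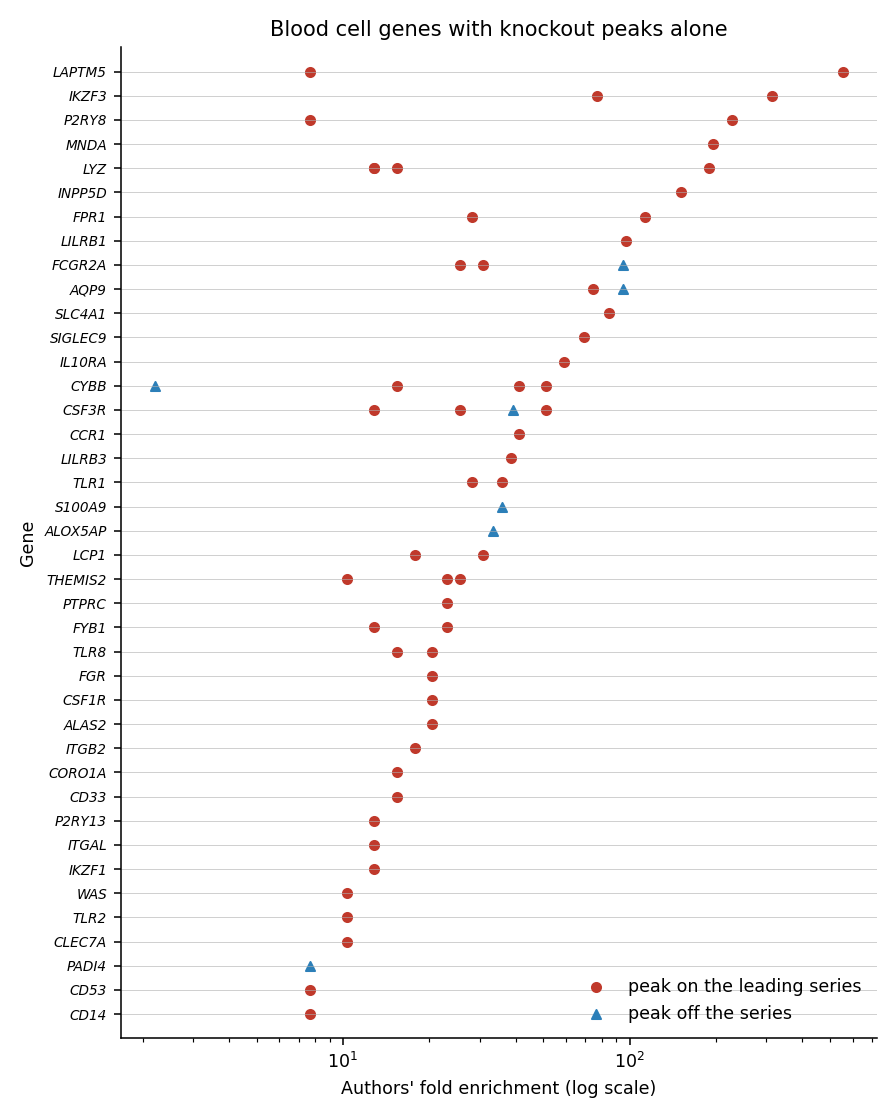
Authors' fold enrichment (x axis, log scale) of 62 of the 66 knockout peaks on 40 of the 43 white and red blood cell genes (y axis) without a SiHa peak on their span; the remaining genes are not shown. Circles mark peaks on the leading series and triangles peaks off it; LAPTM5 reached the highest fold, 554, and many genes had 1 peak between 7.69 and 20.5.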

How the data were processed

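RNA of 8 libraries was captured or kept as input and sequenced with a stranded mRNA kit, per the labels' protocols. FastQC 0.11.7 and GRCh38 (hg38) are named in the submitters' processing notes. Not given in the sources used here: aligner, peak caller, annotation and handling of replicates. Per the file headers, each peak has a p-value, in a column headed score, and blocks. The knockout list, per the file headers, adds scores that hold log10 of p and of FDR, and a fold enrichment, a ratio deposited by the authors. They were used as deposited, to rank or filter peaks inside each list.

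From the knockout list 3 peaks and from the SiHa list 3 peaks off the chromosomes were left out, with 1 repeated line. Overlap meant at least 1 shared base of blocks. An identifier took a RefSeq name (GRCh38.p14) when its peaks touched 1 span, not known to lie on the other strand, with at least 90% of their bases, no other identifier claimed it and no small or ribosomal RNA held 50% of the bases. Of 9045 identifiers, 7215 (79.8%) were named. The leading series required a −log10 p of less than 0.26 per unit of fold and the largest p at that fold. Named genes were the 10 with most peaks, highest fold (over all peaks, and over peaks with a fold and p of their own) and smallest p, the 5 widest and most divided, members overlapping a SiHa peak, NAT10, and up to 6 of each list by p, some left out of the text and the plots and not reported here. Start peaks, small RNAs and blood cell genes were added after their values were seen. Members and lists were chosen with earlier results of these data known. Naming and overlap were tested on simulated data. Python 3.11 tools were pandas, numpy and scipy.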

Additional observations from a re-analysis of the deposited data

How the results depend on the processing

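No paired analysis was possible because the lists hold no value per library, and no replicate could be left out for the same reason. Depth is unknown, so a gene missing from the SiHa list may be one that was not detectable there. The count of 1754 knockout-only genes fell to 866 when both lists were limited to a −log10 p above 8, and to 311 with only knockout peaks whose fold and p occur once. It stayed within 1.5 times under the other settings, at 1671 by place, 1267 with an FDR under 0.05, 2572 against the SiHa list reduced to as many strongest peaks, and, added after seeing the data, 1563 at places of their own. As a share of identifiers with a knockout peak, these were 59% for a −log10 p above 8, 35.7% for pairs that occur once, 44% for FDR under 0.05 and 69% against the reduced SiHa list. Overlap with SiHa peaks of another identifier, 0.2% of member peaks, was 0.351% on either strand and 0 with at least 50% of both peaks shared. The share with an FDR under 0.05, 70.8%, was 59.5% at 0.01. The share with a repeated fold and p, 83.5%, was 74% for pairs held by at least 5 peaks and 53.1% for the leading series, a rule added after seeing the data. Among members whose pair occurs once, gapped blocks rose to 44.4%, the median fold fell to 7.69, the median −log10 p was 15 and the median width 181 bases. Among members with an FDR under 0.05, the median fold was 19.7 and the median −log10 p 7.11. The share of start peaks with the repeat of C and any 2 bases was 27% with an FDR under 0.05, within the interval of the 30% reported. Over the 23 functional lists, 130 members were counted, 133 with protein-coding spans alone and, added after seeing the data, 149 by place, 123 with spans on either strand and 114 with an FDR under 0.05.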

Other observations

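Over all chromosomes, members made up 43.8% of the knockout peaks (1997 of 4556, 42.4 to 45.3%). They were found on every chromosome from 1 to 22 and on X, with shares of the knockout peaks that ranged from 30.3% on chromosome 8 (46 of 152, 23.1 to 38.2%) to 58.8% on chromosome X (67 of 114, 49.2 to 67.9%). All 4 mitochondrial knockout peaks belonged to identifiers that also had SiHa peaks. Besides chromosomes 8 and X, the intervals of chromosomes 1 (45.2 to 54.5%), 5 (48.2 to 61%) and 21 (44.1 to 71.3%) lay above that share, and those of chromosomes 2 (30.9 to 41.6%), 6 (29.3 to 42.2%) and 9 (24.2 to 39.7%) below it. The intervals are not adjusted for the number of chromosomes. Members' blocks could lie far apart: the longest stretch from first to last base was 236306 bases, for a peak at the KCNMB2 locus that was picked for this length.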
